A study of Homo sapiens with 5 samples.

Results

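Leukotriene B4 and lipoxin A4 were compared through the 2 arrays of MonoMac6 cells that carry their names, out of 5 arrays in the series, and the array of unstimulated cells showed on which side a gene lay apart. MonoMac6 is an established human monocytic cell line. The cells of both arrays had been cultured for 12 h with 100 nM of the respective compound, which was added from a stock in DMSO, whereas the labels do not say whether the unstimulated cells were given DMSO. Leukotriene C4 and lipoxin B4, used at the same dose and time, were read on the remaining 2 arrays and serve here only to place the pair. Each condition was read on 1 array, so no difference has a measured error, no test was possible, and every statement below is about arrays and not about conditions.

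Leukotriene B4 is a dihydroxy fatty acid that 5-lipoxygenase and leukotriene A4 hydrolase make from arachidonic acid. It draws phagocytes to sites of inflammation through the G protein-coupled receptor LTB4R. Lipoxin A4 is a trihydroxy product of the same substrate that needs a further lipoxygenase, and it is known for limiting leukocyte recruitment and for promoting the uptake of dying cells, with FPR2 as its best known receptor. The pair is therefore the textbook contrast of a pro-inflammatory and a pro-resolving product of the same pathway, and the series title draws the same division.

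The 2 arrays were alike. Of 15374 genes with a signal above the floor of 48.7 on at least 1 of the 5 arrays, 223 (1.45%) were at least 2-fold apart between them. Of these, 108 (0.702%) were higher with leukotriene B4 and 115 (0.748%) were higher with lipoxin A4. Over all genes, 6755 were higher and 6964 lower with leukotriene B4, and 1655 were at the floor on both arrays. The median difference was 0.00 on the log2 scale, which the common scaling and the genes at the floor largely set beforehand. Against the unstimulated array, the leukotriene B4 array had 373 genes (2.43%) at least 2-fold apart and the lipoxin A4 array 368 (2.39%). Those 2 comparisons share the unstimulated array. Over the 10 pairs of arrays the count ran from 197, for leukotriene B4 and lipoxin B4, to 437, for unstimulated cells and leukotriene C4. Leukotriene B4 thus lay closer to lipoxin A4 than to leukotriene C4 (373 genes) by this count, and about as close to lipoxin A4 as lipoxin A4 was to lipoxin B4 (202 genes). Dim genes carry these counts. Among genes with a mean signal of 500 or more, 58 were at least 1.5-fold apart between leukotriene B4 and lipoxin A4 and 67 between leukotriene B4 and leukotriene C4, and 4 and 6 were 2-fold apart.

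**Figure D1:**
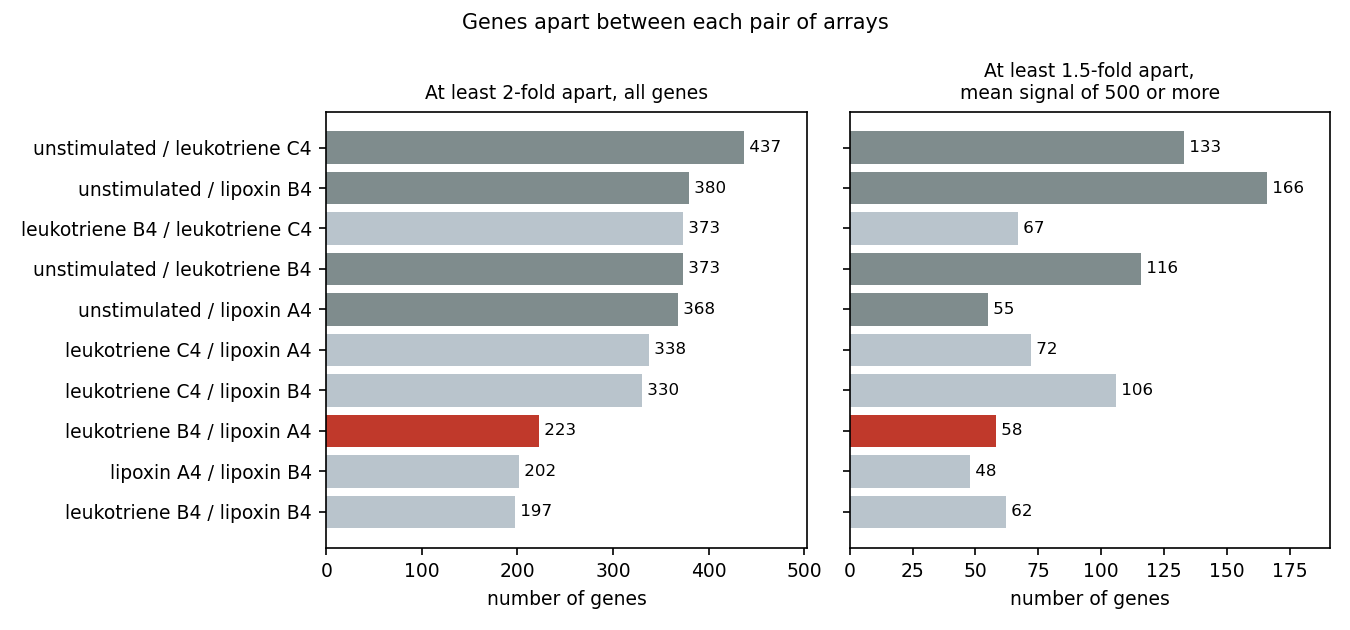
Number of genes apart between each of the 10 pairs of arrays, at least 2-fold among all 15374 genes (left) and at least 1.5-fold among genes with a mean signal of 500 or more (right). The leukotriene B4 and lipoxin A4 pair (red) had 223 and 58 such genes, dark grey bars mark pairs with the unstimulated array and light grey bars the other pairs of stimulated arrays.

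Nearly all genes that were 2-fold apart were dim. Among genes with a mean signal over the pair under 100, 3.04% were at least 2-fold apart, and between 100 and 200 it was 4.02%. The share was 0.714% between 200 and 500, and 4 of the 7112 genes (0.0562%) with a mean signal of 500 or more were 2-fold apart. The SD of the log2 difference between the arrays was 0.40 under a signal of 100 and 0.13 above 2000. For genes with a mean signal of 500 or more, the SD was 0.17, the lowest of the 10 pairs, whose highest was 0.25. This spread holds differences between the cells together with the error of the arrays, which 1 array per condition cannot separate.

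**Figure D2:**
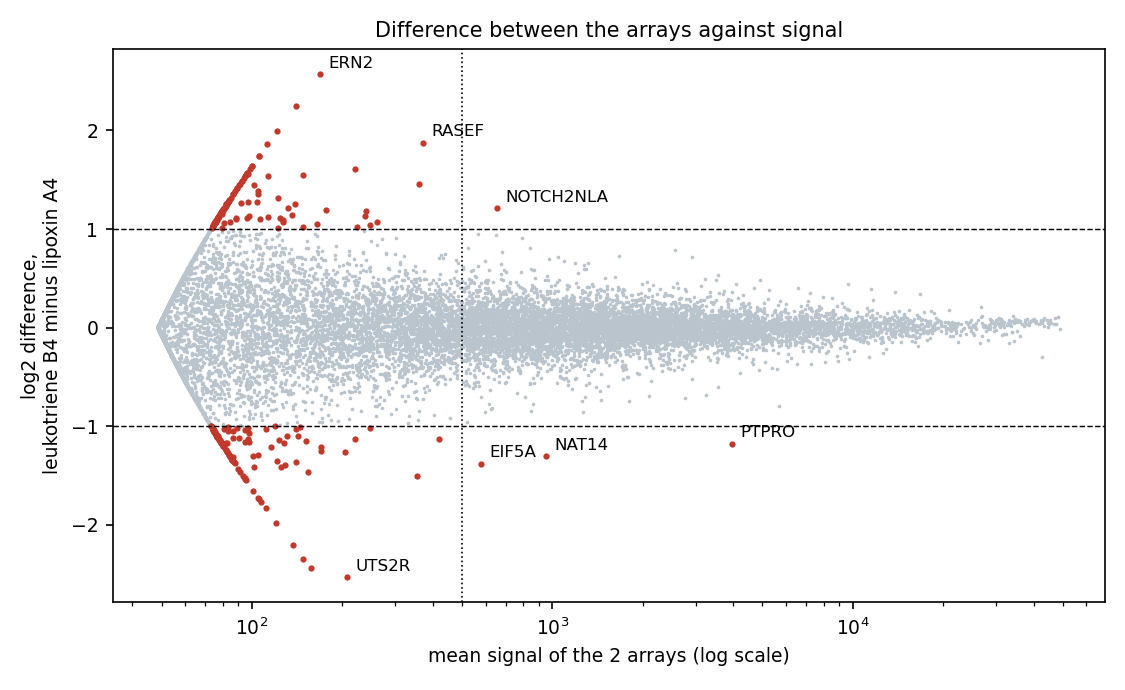
Log2 difference between the leukotriene B4 and lipoxin A4 arrays for each of the 15374 genes, against the mean signal of the pair on a log axis. Red points are the 223 genes at least 2-fold apart (dashed lines), and 4 of them lie to the right of the dotted line at a signal of 500; points on the slanted edges have 1 array at the floor.

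The 4 brighter genes were EIF5A, NAT14 and PTPRO, which were lower with leukotriene B4 (3 genes, 0.0422%), and NOTCH2NLA, which was higher (1 gene, 0.0141%). EIF5A (chromosome 17), a translation factor that carries the hypusine modification and helps ribosomes through difficult peptide bonds, had a signal of 320 with leukotriene B4 and 834 with lipoxin A4, against 511 in unstimulated cells (log2 difference between the pair -1.38). Its signals with leukotriene C4 and lipoxin B4 were 925 and 1186. On this probe set the leukotriene B4 array was the lowest of the 5, and the unstimulated array lay between it and the other 3. On another probe set leukotriene C4, at 453, was level with unstimulated cells, at 455. The other probe sets of EIF5A gave -0.73 and -0.90, so all 3 had the same direction between the pair. All 3 are of types that may also read related transcripts, so the gene is uncertain to that extent.

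NAT14 (chromosome 19), a putative N-acetyltransferase, had 551 with leukotriene B4 and 1361 with lipoxin A4, against 1797 in unstimulated cells (log2 -1.30 between the pair). With leukotriene C4 and lipoxin B4 it had 709 and 693, so that leukotriene B4 was low together with these, and lipoxin A4 lay near unstimulated cells. PTPRO (chromosome 12), a receptor-type tyrosine phosphatase, had 2427 and 5489, against 6826 in unstimulated cells, 4603 with leukotriene C4 and 3327 with lipoxin B4 (log2 -1.18 between the pair). Every stimulated array was below the unstimulated one for PTPRO, and leukotriene B4 was the lowest. Its other probe set was at the floor on both arrays of the pair. NOTCH2NLA (chromosome 1), a human-specific Notch-related gene of a group of near-identical copies that its probe set may not tell apart, had 916 with leukotriene B4 and 396 with lipoxin A4 (log2 1.21). The unstimulated array had 791, and leukotriene C4 and lipoxin B4 had 506 and 370. Here leukotriene B4 lay near unstimulated cells and lipoxin A4 was among the low arrays.

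The promoters of these 4 genes are shown because they are the bright members that set the arrays 2-fold apart. They are RefSeq sequences of GRCh38.p14, 250 bases before to 50 after the gene start in the table, read 5′ to 3′ on the gene's strand, with GC boxes (GGGCGG on either strand, overlapping matches included) in capitals. EIF5A is at chr17:7306749-7307048 (plus strand), NAT14 at chr19:55484938-55485237 (plus strand), PTPRO at chr12:15322258-15322557 (plus strand) and NOTCH2NLA at chr1:146228972-146229271 (minus strand).
EIF5A: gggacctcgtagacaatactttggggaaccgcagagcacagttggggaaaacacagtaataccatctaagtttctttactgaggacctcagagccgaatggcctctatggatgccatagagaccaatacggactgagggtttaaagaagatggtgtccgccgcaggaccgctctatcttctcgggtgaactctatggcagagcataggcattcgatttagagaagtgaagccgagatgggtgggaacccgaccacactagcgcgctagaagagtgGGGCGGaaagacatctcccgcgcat
NAT14: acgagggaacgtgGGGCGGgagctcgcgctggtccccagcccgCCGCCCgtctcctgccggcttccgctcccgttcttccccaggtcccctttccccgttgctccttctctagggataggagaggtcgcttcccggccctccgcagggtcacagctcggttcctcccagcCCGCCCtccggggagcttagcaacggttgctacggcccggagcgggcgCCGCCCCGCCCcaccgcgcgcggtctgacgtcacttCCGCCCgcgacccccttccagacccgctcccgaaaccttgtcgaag
PTPRO: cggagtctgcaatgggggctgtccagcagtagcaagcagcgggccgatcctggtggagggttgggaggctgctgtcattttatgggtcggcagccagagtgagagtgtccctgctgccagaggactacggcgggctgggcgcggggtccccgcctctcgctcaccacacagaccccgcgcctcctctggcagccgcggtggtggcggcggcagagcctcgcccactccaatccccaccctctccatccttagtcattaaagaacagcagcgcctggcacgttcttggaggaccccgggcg
NOTCH2NLA: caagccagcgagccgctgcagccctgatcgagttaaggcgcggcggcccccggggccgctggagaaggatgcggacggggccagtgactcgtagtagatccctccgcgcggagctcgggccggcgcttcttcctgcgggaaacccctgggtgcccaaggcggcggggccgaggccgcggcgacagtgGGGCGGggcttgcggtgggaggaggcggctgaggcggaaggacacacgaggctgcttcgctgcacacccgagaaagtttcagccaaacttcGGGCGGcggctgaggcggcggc

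These 4 windows do not look alike. They hold 1, 6, 0 and 2 GC boxes in the order given, and their GC content is 52.3%, 71.7%, 66.7% and 72.0%. None of the 4 holds GCGTG, the core of the element bound by the aryl hydrocarbon receptor, for which lipoxin A4 has been described as a ligand. Over the 223 genes at least 2-fold apart, promoters were found for 82 of the 108 genes higher with leukotriene B4 and for 82 of the 115 lower. GCGTG, on either strand, was in 40 (48.8%) of the promoters of the former and 26 (31.7%) of the latter, against 47.0% of the 12209 promoters of measured genes and 36.3% of all 27305 in the table. Among the brighter genes at 1.5-fold it was in 11 of 20 promoters of higher and 14 of 28 of lower genes, against 53.5% of bright genes. GC boxes were in 64.6% and 58.5%, against 64.1% of measured genes, 72.1% of bright genes and 44.6% of all. Only 4 of the 223 genes had a mean signal of 500 or more, and bright genes held GCGTG and GC boxes more often than measured genes at large. The shares of measured genes are therefore not matched to the 223 genes for signal. The AP-1 element TGANTCA was in 5 and 3 promoters of the higher and lower genes (6.10% and 3.66%, against 5.17% of measured genes and 7.76% of all), and the E-box CACGTG in 8 and 6 (9.76% and 7.32%, against 9.66% and 7.43%). GCGTG and CACGTG share 4 letters, but neither contains the other. Median GC content was 66.0% and 63.7%, against 64.3% for measured genes. These shares were not tested, and a match is a run of letters and not a binding site.

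Below 2-fold, 58 of the 7112 brighter genes (0.816%) were at least 1.5-fold apart, 26 (0.366%) higher and 32 (0.450%) lower with leukotriene B4. PRKACA (chromosome 19), the catalytic subunit of cAMP-dependent protein kinase, had 896 with leukotriene B4 and 1625 with lipoxin A4, against 1875 unstimulated, 1046 with leukotriene C4 and 1021 with lipoxin B4 (log2 -0.86). Its other probe set gave -1.62, with 85.1 against 261. PRKACA was therefore low on 3 stimulated arrays and near the unstimulated level with lipoxin A4. ARHGDIA (chromosome 17) had 4159 and 7229, against 9673, 5362 and 4988 on the unstimulated, leukotriene C4 and lipoxin B4 arrays (log2 -0.80), and its other 3 probe sets gave between -0.29 and -0.88. The order of the arrays was the same as for PRKACA, but lipoxin A4 lay further below unstimulated cells (log2 -0.42, against -0.21 for PRKACA). On 1 of the other ARHGDIA probe sets leukotriene C4, at 5101, was lowest, with leukotriene B4 at 5209. CIC, a transcriptional repressor (453 and 774, with 793 unstimulated), and XAB2, a splicing and repair factor (458 and 804, with 966 unstimulated), were also nearer to the unstimulated value with lipoxin A4. ST14, the membrane protease matriptase, had 424 and 766, with 556 unstimulated, and its other probe set gave -0.73. TMA16, a factor of ribosome assembly, had 636 and 1087, with 642 unstimulated, and HNRNPL, a splicing regulator, had 1351 and 2262, with 1723 unstimulated. For TMA16 it was the lipoxin A4 array that lay apart, and lipoxin B4 was there with it at 1173.

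Among the brighter genes higher with leukotriene B4, MAPK3, the kinase ERK1, had 854 with leukotriene B4 and 444 with lipoxin A4, against 631 unstimulated, 713 with leukotriene C4 and 561 with lipoxin B4 (log2 0.94). RGS1 (chromosome 1), which ends signalling of G proteins of the type used by chemoattractant receptors, had 1076 and 614, against 923 unstimulated (log2 0.81), while its other probe set gave 0.11. The highest RGS1 signal on the brighter probe set was with leukotriene C4, at 1298, and lipoxin B4 had 769. On that probe set both leukotriene arrays were above the unstimulated one and both lipoxin arrays below it. On the other, lipoxin A4, at 270, was above unstimulated cells, at 260. PPP2R1A, the scaffold subunit of protein phosphatase 2A, had 3249 and 1883, against 2157 unstimulated (log2 0.79). INTS9, a subunit of the Integrator complex, had 1034 and 551, against 996 unstimulated (0.91), so that lipoxin A4 was the side apart. ASAP1, a GTPase-activating protein of Arf (3618 and 2199, 3028 unstimulated), TTF2 (1294 and 790, 1058 unstimulated), ZNF451 (1205 and 746, 803 unstimulated) and KLHL5 (821 and 526, 690 unstimulated) completed the ranked genes. Their other probe sets had the same sign, but the ranking admitted no gene with an opposite one. That rule left out DDX60L (log2 0.95), HDAC5 (0.80), RNA45SN5 (0.76) and DYNC1H1 (0.73), which lay further apart than ASAP1. Among the lower genes it left out PROM2 (-0.96), POLR2A (-0.84) and RAB11B (-0.83), which lay further apart than HNRNPL.

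Also among the 10 by rank was the transcript annotated to MIR142, the gene of a microRNA made almost only in blood cells. Its brighter probe set had 683 with leukotriene B4 and 444 with lipoxin A4 (log2 0.62), against 655 unstimulated, 647 with leukotriene C4 and 458 with lipoxin B4. The other probe set had 125 with leukotriene B4 and lay at the floor with lipoxin A4 (at least 1.36 on the log2 scale). Both lipoxin arrays were below the unstimulated and both leukotriene arrays on both probe sets. On the dimmer one, however, leukotriene C4, at 84.9, lay nearer to lipoxin B4, at 73.5, than to unstimulated cells, at 119. That probe set is of a type that may read other transcripts. The array reads the longer transcript and not the mature microRNA, whose RefSeq sequences (GRCh38.p14, chromosome 17, minus strand) are given with the seed, bases 2 to 8, in capitals.
hsa-miR-142-3p: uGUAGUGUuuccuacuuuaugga
hsa-miR-142-5p: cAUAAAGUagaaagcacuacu

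**Figure D3:**
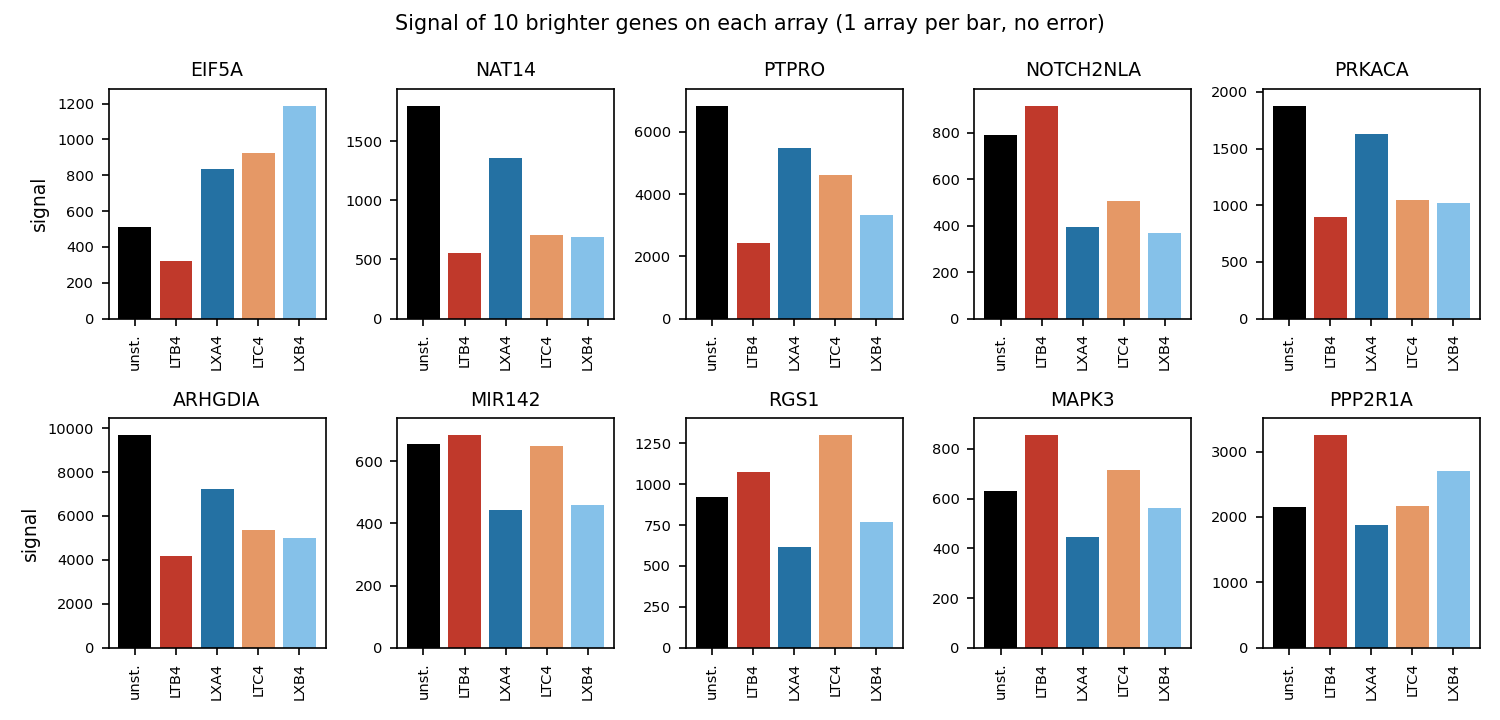
Signal of 10 genes with a mean signal of 500 or more on each of the 5 arrays, with 1 array per bar and axes from 0. EIF5A, NAT14, PTPRO, PRKACA and ARHGDIA are lowest with leukotriene B4 (LTB4), and MIR142, RGS1 and MAPK3 are lower with lipoxin A4 (LXA4) than with any other compound.

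Placing the 223 genes by the unstimulated array showed genes on either side. A side was said to lie apart where its log2 distance from the unstimulated value was at least 2 times that of the other side. The leukotriene B4 side lay apart for 82 genes and the lipoxin A4 side for 96, and for 45 the unstimulated value lay in between. Of the 108 genes higher with leukotriene B4, 35 were high on the leukotriene B4 array, 51 were low on the lipoxin A4 array and 22 were in between. Of the 115 lower, 47 were low on the leukotriene B4 array, 45 were high on the lipoxin A4 array and 23 were in between. The lipoxin A4 side was the commoner among the former and both sides were about equal among the latter.

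**Figure D4:**
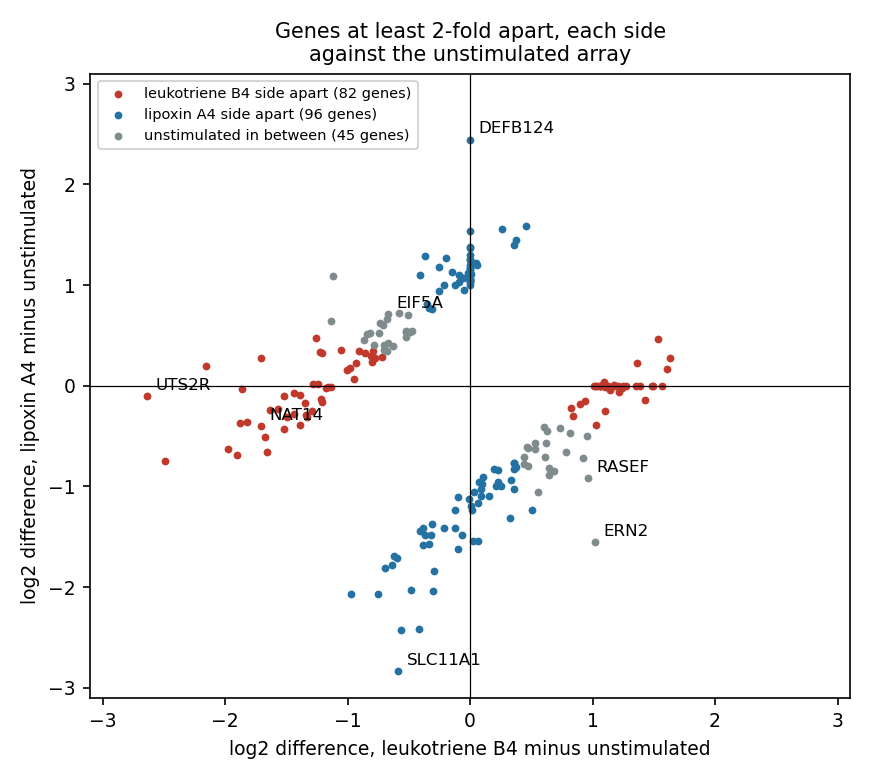
The 223 genes at least 2-fold apart, placed by the log2 difference of leukotriene B4 from unstimulated (x axis) and of lipoxin A4 from unstimulated (y axis). Red marks the 82 genes with the leukotriene B4 side apart, blue the 96 with the lipoxin A4 side apart and grey the 45 in between; the empty diagonal is set by the 2-fold rule, and both axes share the unstimulated array.

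UTS2R (chromosome 17), the urotensin 2 receptor, had the largest difference among genes above the floor on both arrays, at 61.1 with leukotriene B4 and 354 with lipoxin A4 (log2 -2.54). With 380 unstimulated, 231 with leukotriene C4 and 299 with lipoxin B4, only the leukotriene B4 array was near the floor. Other genes low on the leukotriene B4 array were NCR2, an activating receptor of natural killer cells (78.6 and 202, 212 unstimulated; other probe sets -0.01 and 0.00), and the antisense transcript ARRDC1-AS1 (68.2 and 181, 142 unstimulated). TBXT, the T-box factor brachyury (68.1 and 174, 122 unstimulated), and CRABP2, a carrier of retinoic acid (49.6 and 124, 90.5 unstimulated), had unstimulated values in between. TLR8, an endosomal sensor of single-stranded RNA in monocytes, was chosen after its values were seen. It had 55.5 and 148, with 159 unstimulated, 169 with leukotriene C4 and 105 with lipoxin B4, and its other probe set, near the floor, gave 0.07.

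Genes high on the lipoxin A4 array were CACNG4, an auxiliary subunit of calcium channels and glutamate receptors (184 and 523, 244 unstimulated; other probe set 0.00), the metallothionein MT1G, which binds zinc and copper (82.0 and 226, 93.7 unstimulated), and ATP11A-AS1 (58.3 and 143, at the floor unstimulated). CACNG4 was high with lipoxin B4 as well, at 436, and not with leukotriene C4, at 172. MT1G was not high with lipoxin B4, at 56.1, but was above unstimulated cells with leukotriene C4, at 169. MCF2L was at the floor with leukotriene B4 and unstimulated and had 126 with lipoxin A4, a difference of at least 2.58-fold. On the same probe set it had 119 with leukotriene C4 and was at the floor with lipoxin B4. One further probe set of MCF2L gave -1.28 and another 0.34. It was the only gene known as a bound in either direction that another probe set backed at 2-fold.

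Genes low on the lipoxin A4 array included ADAM33, a metalloprotease (331 with leukotriene B4 and 109 with lipoxin A4, 316 unstimulated; log2 1.60), PTPDC1, a phosphatase linked to cilia (145 and 49.3, 143 unstimulated), GLIDR, LINC01210 and ZNF503-AS1. The other probe set of PTPDC1 gave 1.16, with 156 and 69.7. Those of GLIDR gave 0.07 and 0.85, but lipoxin A4 was above unstimulated cells there (102 against 78.1 and 90.6 against 65.9). GLIDR was thus low with lipoxin A4 on its brightest probe set only, which is of a type that may read other transcripts. HROB, a recombination factor that works with MCM helicases, had 168 and 58.2 with 108 unstimulated, and SYPL2 had 174 and 70.2 with 114, so that the compounds lay on opposite sides of unstimulated cells. METTL14-DT was likewise in between. CPNE9, a calcium-dependent membrane-binding copine, was the one among the ranked genes that was high on the leukotriene B4 array, at 129 against 54.0, with 54.8 unstimulated. It was high with leukotriene C4 and lipoxin B4 as well, at 144 and 115, so lipoxin A4 was the only compound near the unstimulated level.

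Some larger differences fell outside the rule and were chosen after their values were seen. SLC11A1, the metal transporter of the phagosome, had 231 with leukotriene B4 and was under the floor with lipoxin A4, at least 4.75-fold apart, with 347 unstimulated. Its other probe sets gave 0.30 and 0.85 in the same direction. RASEF, a Rab-related GTPase, had 582 and 159, with 300 unstimulated (log2 1.88), and its other probe sets gave 0.17 and -0.27. ERN2, an endoplasmic reticulum stress sensor of epithelia, was at least 5.94-fold higher on its brighter probe set and lower by -1.22 on the other, so its direction is not settled. DEFB124, a beta-defensin, was at the floor with leukotriene B4 and unstimulated and had 265 with lipoxin A4, at least 5.44-fold apart on its 1 probe set. With leukotriene C4 and lipoxin B4 it had 219 and 81.0.

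Different probe sets of a gene seldom gave the same answer at 2-fold. Among the 108 genes higher with leukotriene B4, 42 had another measured probe set, and in 12 of these all others had the same sign, while 25 had 1 or more of opposite sign. Among the 115 lower, 45 had another, 11 had the same sign throughout and 17 had an opposite one. Another probe set was 2-fold apart in the same direction for 2 and 1 genes, and in the opposite direction for 2 and 1 as well. Of the 58 brighter genes at 1.5-fold, all others had the same sign for 8 of 19 higher and 11 of 20 lower genes that had another, and 11 and 8 had an opposite one.

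The division into leukotrienes and lipoxins was followed by part of the 223 genes. Among the 108 genes higher with leukotriene B4, leukotriene C4 lay nearer to leukotriene B4 than to lipoxin A4 for 58 and lipoxin B4 lay nearer to lipoxin A4 for 56. Among the 115 lower, leukotriene C4 lay nearer to leukotriene B4 for 47 and lipoxin B4 nearer to lipoxin A4 for 53. Both leukotriene arrays were on one side of both lipoxin arrays for 50 and 36 genes, and by at least 1.5-fold for 17 and 14. Since the genes were picked on the gap between leukotriene B4 and lipoxin A4, these counts describe where the other arrays fell and support nothing further.

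Of 24 measured genes of eicosanoid synthesis and breakdown, read from their brightest probe sets, 10 were higher and 11 lower with leukotriene B4 and none was 2-fold apart, with a median of 0.00. At the 1.45% of all measured genes, a list of this size would hold few such genes or none, so the count says little. MGST3, a microsomal glutathione transferase, was 2-fold apart when its probe sets were averaged (log2 1.24, against 0.19 for the brightest), through 1 probe set with 401 on the leukotriene B4 array and a value under the floor on the lipoxin A4 array. ALOX5AP, the helper protein of 5-lipoxygenase, had 33323 and 34442 with the pair, against 34336 unstimulated. ALOX5 itself had 119 on both and 143 unstimulated, and LTA4H, which completes leukotriene B4, had 3772 and 3940, with 3683 unstimulated. LTC4S, the leukotriene C4 synthase, had 144 and 223, with 178 unstimulated (log2 -0.63), and HPGD, which inactivates prostaglandins and lipoxins, had 901 and 1347, with 1113 unstimulated (-0.58), though its other 3 probe sets gave between -0.14 and 0.28. DPEP2, a dipeptidase of cysteinyl leukotrienes, had 101 and 65.0 and was at the floor unstimulated (0.64). PLA2G4C, a phospholipase, had 133 and 91.7, with 206 unstimulated (0.54). Other members, such as MGST2 (-0.05), DPEP3, PTGR1 and PTGES3 (each 0.01), were close to 0. ALOX15, whose product feeds lipoxin synthesis in other cells, was under the floor on all 5 arrays.

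The receptors of the 2 compounds were at like levels on both arrays. On its brightest probe set LTB4R had 687 with leukotriene B4 and 689 with lipoxin A4, both under the 906 of unstimulated cells. Leukotriene C4 and lipoxin B4 had 702 and 651 there. Another LTB4R probe set had 531 and 575 with the pair and 603 unstimulated. A further one had 416 and 456 with 416 unstimulated, so it showed no lower level than unstimulated cells. FPR2, the lipoxin A4 receptor, had 54.5 with leukotriene B4 and was at the floor with lipoxin A4, with 48.7 unstimulated, so both lay near the floor. FPR1, the receptor of formyl peptides, was at the floor with leukotriene B4 and had 56.9 with lipoxin A4. CMKLR1, a receptor of chemerin and resolvin E1, had 49.0 and 79.3 with 90.7 unstimulated (log2 -0.69), but its other probe set gave 0.72. In the other direction, PTGDR2, a prostaglandin D2 receptor, had 76.2 and the floor value (at least 0.65), and TBXA2R, the thromboxane receptor, had 143 and 91.2 (0.65), with other probe sets from -0.77 to 0.78. PPARA, a nuclear receptor described to bind leukotriene B4, had 174 and 195, and AHR had 833 and 742, with 671 unstimulated. Over 18 measured receptors the median was -0.00, with 8 higher and 9 lower with leukotriene B4 and none 2-fold apart, beside 1.45% of all genes. LTB4R2, GPR32 and FPR3 were not measured here.

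Inside the cell, 27 genes that carry the signal of chemoattractant receptors had a median of -0.01, with 13 higher and 14 lower with leukotriene B4, and RGS1 was the farthest apart. GNAI2, the main inhibitory G protein of leukocytes, had 3454 and 4214, with 4342 unstimulated, and the receptor kinase GRK2 had 3167 and 3939, with 4001 unstimulated. Both were thus near the unstimulated level with lipoxin A4, but the other probe sets of GRK2 gave 0.02 and 1.17, the opposite direction. PIK3CG, the phosphoinositide kinase driven by these receptors, had 2742 and 2297, with 2447 unstimulated, and its other probe sets, at -0.44 and -0.20, were opposite too. The 24 genes of actin and motility had a median of -0.01, and 13 of 19 adhesion genes were lower with leukotriene B4 (median -0.10). Of all 15374 measured genes, 6755 were higher and 6964 lower with leukotriene B4, and of the 7112 brighter ones 3472 and 3640. The lean of a list to either side was not tested. TLN1, which activates integrins, had 1479 and 1943, with 2421 unstimulated (other probe set 0.29, opposite), and ITGA4 had 6271 and 7394, with 6762 unstimulated.

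Of 12 measured pro-inflammatory cytokines, 6 were higher and 6 lower with leukotriene B4 (median 0.01). TNF had 639 and 553, with 559 unstimulated, and IL1B 1144 and 1059, with 1020 unstimulated. Of 17 chemokines, 5 were higher, 6 lower and 6 at the floor on both, with a median of 0.00. CXCL8, the neutrophil chemoattractant, had 896 and 701, with 896 unstimulated (log2 0.35), and CCL2 had 727 and 777. CXCL10, an interferon-induced chemokine, had 79.6 and 128, with 142 unstimulated (-0.68). Among 9 chemoattractant receptors C3AR1, the receptor of the complement fragment C3a, was farthest apart (79.2 and 119, 133 unstimulated).

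Of 18 NF-kappaB subunits and targets, 10 were higher and 8 lower with leukotriene B4, with a median of 0.01. RELB, a subunit of the non-canonical pathway, had 125 and 232, with 281 unstimulated, 199 with leukotriene C4 and 203 with lipoxin B4 (log2 -0.89), and was the farthest apart. NFKBIA and TNFAIP3, feedback inhibitors, differed by 0.01 and 0.12. Among 22 immediate early genes and NAB corepressors the median was 0.02. NR4A1 had 63.7 and 109 and NR4A2 76.8 and the floor value, in opposite directions. EGR1 had 3313 and 2773, with 3006 unstimulated, and NAB1, a corepressor of EGR1 described as induced by lipoxin A4, had 520 and 534, with 512 unstimulated.

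SOCS2, a feedback inhibitor of cytokine signalling described as a lipoxin A4 target, had 6785 with leukotriene B4 and 6019 with lipoxin A4, with 5871 unstimulated. SOCS3, which restrains STAT3, was the 1 member of 23 measured anti-inflammatory and feedback genes at least 2-fold apart, at 60.7 and 136, with 120 unstimulated (log2 -1.16), and its other 2 probe sets gave 0.00 and 0.06. The difference therefore rests on 1 dim probe set. The list's median was -0.02. HMOX1 had 108 and 93.6, with 95.4 unstimulated, and the 13 NRF2 targets had a median of 0.02. Of 11 genes of the aryl hydrocarbon receptor and of kynurenine, 4 were higher and 7 lower (median -0.03), with CYP1B1 at 968 and 1053 and TIPARP at 915 and 925. CYP1A2 had 123 and 189, with 110 unstimulated (-0.62).

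Among 22 genes of efferocytosis, the uptake of dying cells, 9 were higher and 13 lower with leukotriene B4 (median -0.03). STAB1, a scavenger receptor for phosphatidylserine, was at the floor with leukotriene B4 and had 123 with lipoxin A4, at least 2.54-fold apart, with 86.0 unstimulated, 98.2 with leukotriene C4 and 51.7 with lipoxin B4. Its other 3 probe sets gave -0.96, -0.03 and 0.00. SCARB1, a receptor of lipoproteins, had 2020 and 2637, with 2650 unstimulated, though its other probe sets ran from -0.75 to 0.39, and MERTK, the main efferocytosis kinase of macrophages, had 300 and 306. PROS1, a bridging ligand of MERTK, and the cholesterol exporter ABCA1 were higher with leukotriene B4, at 173 against 113 and 104 against 64.1.

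Of 20 interferon-stimulated genes, 12 were higher with leukotriene B4, 4 lower and 4 at the floor on both (median 0.03). Of all 15374 genes these were 6755, 6964 and 1655. The larger differences were in dim members, with RSAD2, OAS2 and ISG20 at 81.9, 77.0 and 73.3 with leukotriene B4 and at the floor with lipoxin A4 and unstimulated. The brighter IFIT3 had 450 and 364, with 372 unstimulated, and ISG15 had 433 and 420. For the oxidase, for granule proteins and for proteases, 12 members were higher and 7 lower, and the median was 0.02. Of the lysosomal proteases among them, CTSD had 817 and 1107, with 1164 unstimulated, and CTSS 4137 and 5172, with 3927 unstimulated.

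Of 12 monocyte markers 9 were measured, 3 higher and 6 lower with leukotriene B4, and the median of -0.16 was the one farthest from 0 among the 29 lists. LYZ had 47389 and 46099, and SPI1, the myeloid master regulator PU.1, had 4630 and 6157, with 7471 unstimulated. CD14 had 188 and 225, with 225 unstimulated, and CSF1R 235 and 304, with 310 unstimulated. With a floor of 244 the list's median was -0.01, as its dim members left. The 17 measured ribosomal protein genes were the most uniform, with 15 higher and 2 lower with leukotriene B4 and a median of 0.04. Of the 7112 genes with a mean signal of 500 or more, 3472 were higher and 3640 lower. In bulk RNA fewer cells and less RNA per cell cannot be told apart.

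The remaining lists had medians of 0.02 for targets of LXR and PPAR, -0.06 for antigen presentation, -0.05 for myeloid transcription factors, 0.01 for the BCL2 family and apoptosis, 0.01 for the cell cycle, 0.02 for heat shock proteins, 0.03 for the unfolded protein response, -0.02 for cholesterol and fatty acid synthesis, 0.03 for glycolysis and hypoxia, 0.02 for the respiratory chain and 0.00 for the circadian clock. Over the 29 lists, 2 of 499 measured genes (SOCS3 and STAB1) were at least 2-fold apart, against 1.45% of all measured genes, and 22 at least 1.5-fold, which is 4.41% against 7.60% of all. The list genes were brighter than genes at large, since 336 of the 499 had a mean signal of 500 or more, against 7112 of 15374, and 2-fold differences were fewer in bright genes. None of the 336 was 2-fold apart, beside 0.0562% of all genes of that signal, a share at which none would be seen in a set of this size as a rule.

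**Figure D5:**
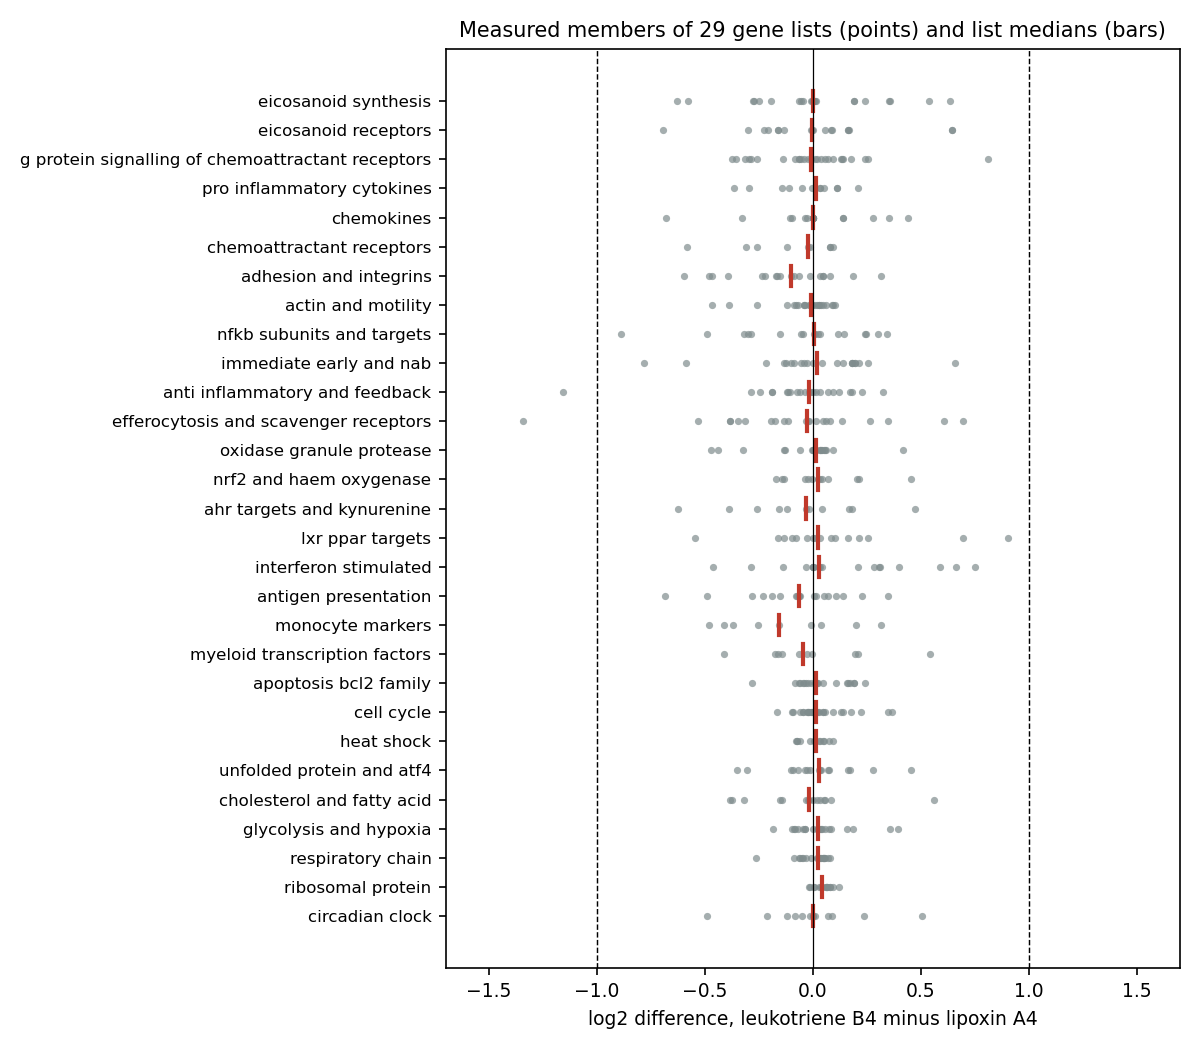
Log2 difference between leukotriene B4 and lipoxin A4 for the measured members (grey points) and the median (red bar) of each of the 29 gene lists, with dashed lines at 2-fold. Medians lie between -0.16 and 0.04, and SOCS3 and STAB1 are the points beyond the dashed lines.

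Some features of the arrays moved with the comparison. The middle probe set for 18S ribosomal RNA, a control, had 186 on the unstimulated array, 365 with lipoxin A4 and 913 with leukotriene B4, 2.50-fold apart between the pair, and 1056 and 3069 with lipoxin B4 and leukotriene C4. The brighter 3′ probe set of the same RNA had 12718 unstimulated, 24194 with lipoxin A4 and 37847 with leukotriene B4, 1.56-fold apart between the pair. It had 27366 and 43345 with lipoxin B4 and leukotriene C4. Of the compounds, lipoxin A4 thus had the lowest rRNA signal, and it also had the fewest brighter genes at least 1.5-fold from unstimulated cells, 55 (0.774%), against 116 (1.64%), 133 and 166 with leukotriene B4, leukotriene C4 and lipoxin B4. Among the other compounds the order by these gene counts was not the order by rRNA signal on either probe set. The part of rRNA in the differences was not tested. The ratio of 3′ to 5′ signal was 1.10 and 1.11 for ACTB and 0.996 and 1.02 for GAPDH with leukotriene B4 and lipoxin A4, so RNA integrity was alike by this measure. The summed signals of markers of other cell types, each led by a few genes, were 7784 and 7616 for T and natural killer cell genes (4 of 9 with a probe set above the floor), almost all of it from NKG7, while CD2 was under the floor on all arrays. For B cell genes they were 399 and 357 (5 of 5), with MS4A1 at or near the floor, and for erythroid and megakaryocyte genes 278 and 357 (4 of 5). For genes of fibroblasts and endothelium, led by PECAM1, they were 5760 and 5379 (6 of 8), and the median difference of the 6 measured was 0.31, with 5 higher with leukotriene B4. For epithelium and liver they were 1039 and 1032 (4 of 7), with EPCAM at the floor on both and a median of 0.41 over 5 measured members (TTR 0.80, KRT8 0.60, KRT18 -0.25), and for nerve and muscle, led by MBP, 1829 and 2005 (3 of 7). Their part in the differences was not tested. GP9, a platelet glycoprotein, was the 1 marker at least 2-fold apart (57.1 and 124, 62.0 unstimulated).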

How the data were processed

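Total RNA of MonoMac6 cells was read on 1 GeneChip array per condition, 5 in all. The authors deposited, for 54675 probe sets, linear intensity values made with GCOS 1.4, per the submitters' processing notes. No algorithm, setting or detection call is named there. After trimming 2% of probe sets at either end, the deposited mean was 500.1 on each array, the mark of a common scaling.

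Signals were scaled again by 1 factor per array (0.978 to 1.03), so that the log2 median of the upper 50% of probe sets was equal. They were converted to log2 and raised to a floor, the 50th percentile of mean log2 signals (48.7). Of the probe sets, 41097 had 1 symbol in the platform annotation, 1801 several and 11777 none, and 62 controls were left out. A gene was measured if above the floor on at least 1 array and was read from its brightest probe set of 29420 (7533 genes had several). Where 1 side lay under the floor, the fold is a bound. Symbols were updated through the gene table (GRCh38.p14; 41043 matched, 0 changed).

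With 1 array per condition nothing was tested, and the number of arrays limits the precision. Counts use a fold of 2. Named by rule were up to 10 genes each way among those above the floor on both arrays whose other probe sets were not opposite, up to 10 with a mean signal of 500 or more, up to 5 bounds backed by another probe set, list members 2-fold apart (up to 4 a list) and genes of eicosanoid synthesis and receptors, which were all examined. Members and lists were chosen with earlier results of these data known. Alternatives were floors at other percentiles, a pseudocount, quantile normalization, the deposited values, other probe set choices and a fold of 1.5. Counting was tested on simulated data. Python 3.11.15, numpy 2.4.6, pandas 2.3.3 and matplotlib 3.10.9 were used.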

Additional observations from a re-analysis of the deposited data

Results flagged for a closer look

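For 5 named genes the compounds lay on opposite sides of unstimulated cells by at least 1.5-fold each way. EIF5A was at -0.67 with leukotriene B4 and 0.71 with lipoxin A4, on the log2 scale against the unstimulated array. Its other probe sets gave -0.52 and 0.21, and -0.34 and 0.56, each under 1.5-fold. RASEF was at 0.96 and -0.92, HROB at 0.64 and -0.89, SYPL2 at 0.61 and -0.70, and ERN2, under the floor with lipoxin A4, at 1.02 and -1.55 or beyond. These differences were not tested, as each side is 1 array and both share the unstimulated one.

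The control for 18S ribosomal RNA, which enters no comparison of genes, was above the unstimulated array on both, 4.90-fold with leukotriene B4 and 1.96-fold with lipoxin A4 on its middle probe set and 2.98-fold and 1.90-fold on its brightest. RNA45SN5, the gene of the ribosomal RNA precursor, had 858 and 506 with 442 unstimulated on its brighter probe set, while the other gave 84.9 and 191 with 173, in the opposite direction between the pair.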

How the results depend on the processing

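No replicate array exists, so no difference could be set against a replicate error, and no paired analysis was possible because each group holds 1 array. The count of genes depended mostly on the floor. With a floor at the 30th percentile (signal 17.4), 2094 genes were apart, 1060 higher and 1034 lower with leukotriene B4, with the leukotriene B4 side apart for 873 and the lipoxin A4 side for 919, and 24 list members were counted. With a floor at the 70th percentile (244) or set by markers of other cell types (247), 8 genes were apart, 3 higher and 5 lower, with 4 and 3 genes on the respective sides and 0 list members. When probe sets of a gene were averaged, 148 were apart, 75 of them lower, with the leukotriene B4 side apart for 49, 2 brighter genes and 1 list member. At 1.5-fold the counts were 1168, 570 and 598, with 454 and 472 by side, 58 brighter genes and 22 list members. A pseudocount of 50 in place of the floor gave 4 list members and 255 genes, of which 95 were among the 223. Quantile normalization gave 238 genes, 217 of them among the 223. The higher share of 48.4% became 37.5% with the higher floors and lay between 43.3% and 55.2% otherwise. SOCS3 turned to 0.064 without probe sets that may read several transcripts, and ERN2 to -1.22. Of 34 named genes at 2-fold, EIF5A, NAT14, NOTCH2NLA, HROB and MT1G stayed so under every alternative that gave a value, and 29 fell under 2-fold in at least 1. NAT14 and NOTCH2NLA had a value under 9 alternatives, EIF5A under 8 and HROB and MT1G under 6. The dim HROB and MT1G had none with the higher floors. They and EIF5A had none without probe sets that may read several transcripts, so these settings could not try them. With probe sets averaged, PTPRO was at -0.59 and MGST3 at 1.24. The median of the interferon-stimulated list was 0.21 over members above the floor on the pair alone, since those at the floor on both left it.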

Other observations

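A contrast between both lipoxin arrays and the others was seen on a probe set of MGST3, a microsomal glutathione transferase able to make leukotriene C4. The brightest probe set of MGST3 had 10233 with leukotriene B4 and 8957 with lipoxin A4 (log2 0.19). Another probe set of MGST3 had 401 and 436 on the arrays of leukotrienes B4 and C4 and 561 unstimulated, and was under the floor with both lipoxins, at least 3.04 on the log2 scale between the pair. It is of a type that may read other transcripts, and it was chosen after its values were seen.

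The metallothioneins, examined after MT1G was ranked, did not move together. MT1E had 93.5 with leukotriene B4 and 208 with lipoxin A4 on its brighter probe set (log2 -1.16) and 208 and 138 on the other (0.59). MT1X was at least 2.04-fold higher with leukotriene B4, and its other probe set gave -0.31. MT2A had 303 and 378, with 343 unstimulated, and MT1F 140 and 172, with 144 unstimulated, while the other probe set of MT1F had 75.8 with leukotriene B4 and was under the floor with lipoxin A4 (at least 0.64). These probe sets are of a type that may read several copies of the family.

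DDX60L, an antiviral helicase-like gene, had 744 with leukotriene B4 and 386 with lipoxin A4, with 362 unstimulated and 761 with lipoxin B4, and its other probe set gave -0.61. CTSZ, a lysosomal carboxypeptidase, had 2093 with leukotriene B4 and 2010 unstimulated, and 3442, 4562 and 3392 with lipoxin A4, leukotriene C4 and lipoxin B4. Its other probe set, near the floor at 62.6 and 53.3 with the pair, gave 0.23, the opposite direction. DDX60L and CTSZ were chosen after their values were seen.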
